A study of Mus musculus with 13 samples.

Results

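The liver makes bile acids from cholesterol, joins them to an amino acid, pumps them into bile and takes them up again from portal blood. The 10 genes described here code for proteins of these steps. Cyp7a1, Cyp8b1, Cyp27a1 and Cyp7b1 code for synthesis enzymes, Slc27a5 and Baat for conjugation enzymes, Slc10a1 and Abcb11 for transporters, and Nr1h4 and Nr0b2 for nuclear receptors. They were chosen by name for their place in the pathway, with earlier results of these data known, and they are 10 of the 53465 genes in the count table. All 10 were among the 13545 genes with enough counts to be tested.

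Liver RNA was sequenced from 6 WT and 7 Nod2-/- male mice of the inbred BALB/c strain, with 1 library per mouse. Nod2 codes for an intracellular receptor for fragments of bacterial peptidoglycan, and the Nod2-/- mice lack it in every tissue. All 13 mice, WT included, received the skin carcinogen dimethylbenz[a]anthracene (DMBA) once as pups and then a high-fat diet, and 30 weeks is the label for both age and time on the diet. The comparison addresses how loss of Nod2 alters the liver in a regimen that leads to liver tumors. The labels list cancer as the disease state of every mouse, and whether the RNA came from tumor or surrounding tissue is not given in the sources used here. According to the paper, tumors were sampled separately where possible, and the sequenced RNA is described only as liver RNA. The paper reported liver tumors in a larger share of male Nod2-/- than male WT mice on this regimen. It also reported greater body weight in male Nod2-/- mice, and late weight loss in those that received both DMBA and the diet. Tumor burden and weight therefore cannot be told apart from genotype in these comparisons. The WT mice were bred separately rather than as littermates, so breeding line and genotype cannot be told apart. No library of an untreated or chow-fed mouse was analysed here.

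Bile acid synthesis starts along a classical route, opened by Cyp7a1, or an alternative route, in which Cyp27a1 and Cyp7b1 act. When bile acids return to the hepatocyte they activate FXR, the product of Nr1h4. FXR raises Nr0b2, which codes for the corepressor SHP, and Abcb11, which codes for the bile salt export pump. SHP, together with a signal from the gut hormone FGF15, holds down Cyp7a1 and Cyp8b1.

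Depth was 14886273 to 20579984 counts on genes per WT mouse, and Nod2-/- mice had 13824780 to 19391431. Nod2 itself had 0 to 4 counts in the WT libraries and 1 to 6 in the Nod2-/- libraries, too few to check the labels. The summed normalized counts of 10 hepatocyte markers ran from 1396100 to 1966100 in WT and from 1494900 to 3057500 in Nod2-/- mice, and Alb, the defining marker of hepatocytes, averaged 1142200 and 1323100. A few mice stood apart in other respects. WT replicate 3 had the highest counts of the WT mice for Cyp2a4 (12622) and Spp1 (3456), and Nod2-/- replicate 4 the highest of all mice (13647 and 6425). These single genes made up 93.2% and 93.1% of the summed female-biased and cholangiocyte lists in Nod2-/- replicate 4, and without them its sums (990 and 474) did not exceed those of every other mouse. Its hepatocyte sum was the highest of all mice with Alb and without it (936871). Nod2-/- replicate 7 had the highest sum of neutrophil markers (15821, against 87.8 to 643 in the other Nod2-/- mice) and the lowest of male-biased genes (34103).

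None of the 10 genes passed a false discovery rate (FDR) of 5% between the genotypes. This count of 0 came from the quasi-likelihood test of edgeR, adjusted by Benjamini and Hochberg's method across all 13545 genes, in which 1.16% of genes passed, 0.65% as higher and 0.509% as lower in Nod2-/- mice. DESeq2 and limma's voom with sample weights also placed 0 of the 10 past it, as did each of the 13 edgeR fits that left out 1 mouse. Of all genes, DESeq2 placed 4.38% past it as higher and 4.03% as lower, and voom 3.83% and 2.39%. With DESeq2 the adjusted p was 0.0516 for Cyp7b1 and 0.0628 for Cyp7a1, the lowest of the 10. At an unadjusted p under 0.05 there were 3 of the 10, Cyp7a1 with a higher and Cyp7b1 and Slc10a1 with a lower fitted level in Nod2-/- mice, beside 23.1% of all genes. The fitted log2 fold change was above 0 for 2 of the 10 and below 0 for 8, with a median of -0.27 beside 0.02 over all genes tested. None of the 10 had normalized counts that did not overlap between the genotypes, beside 1.44% of all genes. In RNA of whole liver, fewer cells of a type and less RNA per cell cannot be told apart.

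**Figure D1:**
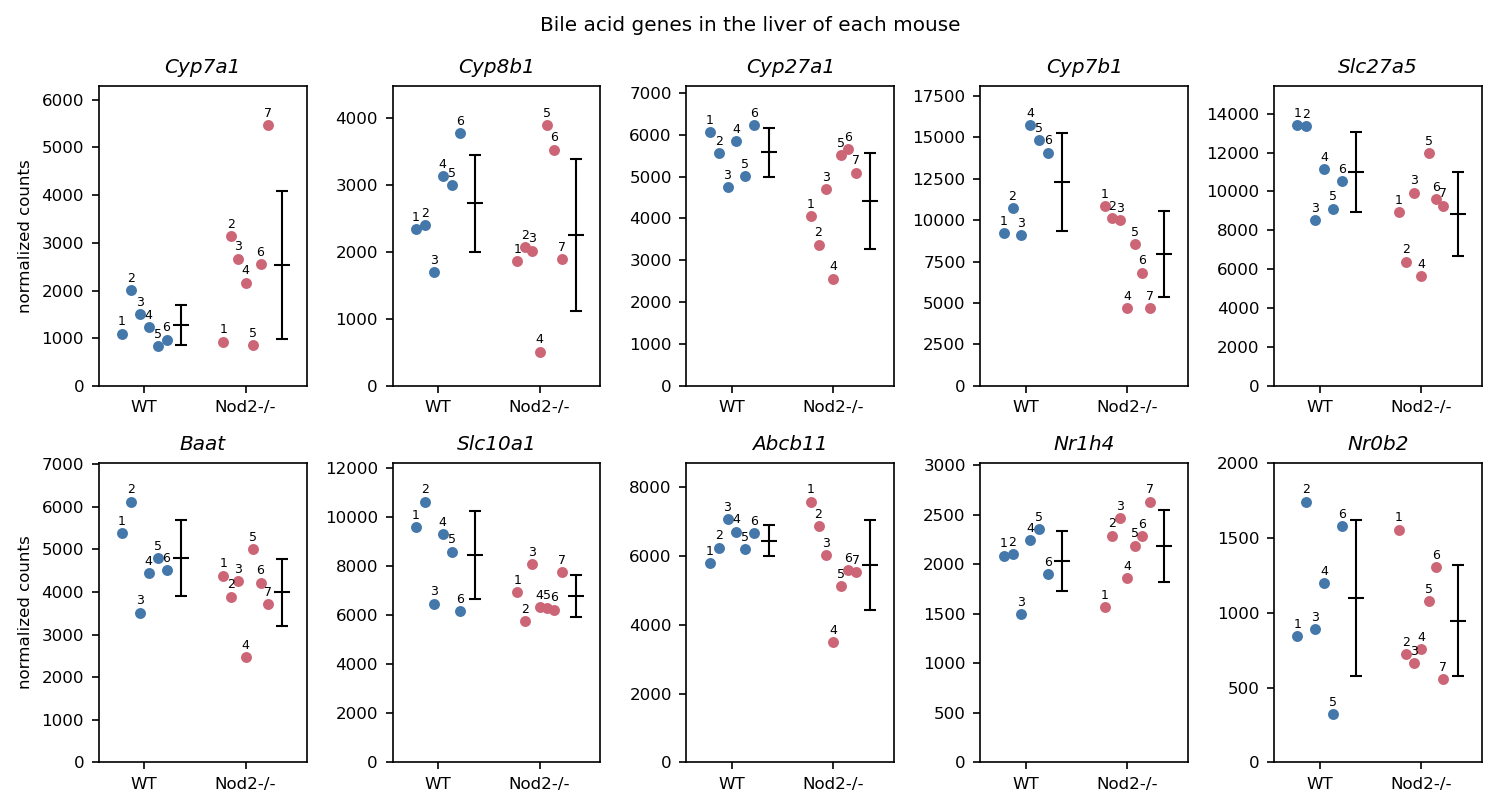
Normalized counts (vertical axes, starting at 0) of the 10 bile acid genes in 6 WT (blue) and 7 Nod2-/- (red) mice, each point 1 mouse with its replicate number, and bars the mean ± SD. The genotypes overlap for every gene, and 5 of 7 Nod2-/- mice lie above all WT mice for Cyp7a1.

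Levels of different genes were compared per length of exon, as RPKM (reads per kilobase of exon, scaled to library size). In WT mice Cyp7b1 was highest at 342 ± 82.1 RPKM (SD, n = 6), followed by Slc27a5 at 272 ± 51.1, Slc10a1 at 232 ± 49.0, Cyp27a1 at 155 ± 16.3 and Baat at 149 ± 27.7. Cyp8b1 followed at 84.2 ± 22.5, Abcb11 at 75.5 ± 5.35, Nr0b2 at 58.4 ± 27.8 and Nr1h4 at 53.2 ± 7.94, and Cyp7a1 was lowest at 18.4 ± 6.18 RPKM. Neighbours in this order differed by more than the larger of their SDs only between Slc10a1 and Cyp27a1, between Baat and Cyp8b1 and between Nr1h4 and Cyp7a1. In Nod2-/- mice Cyp7a1 was at 36.7 ± 22.5 RPKM (SD, n = 7) and was still the lowest of the 10, while Cyp7b1 at 222 ± 72.1, Slc27a5 at 218 ± 53.5 and Slc10a1 at 186 ± 23.5 were the highest.

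Cyp7a1 (ENSMUSG00000028240.2, chr4:6265612-6275633 of GRCm38, minus strand) codes for cholesterol 7-alpha-hydroxylase, the rate-limiting enzyme of the classical route. Its normalized counts, scaled to the mean library size, had a lowest value of 835, a median of 1167 and a highest value of 2013 in WT mice, and of 856, 2551 and 5468 in Nod2-/- mice. Nod2-/- replicates 2, 3, 4, 6 and 7 exceeded every WT mouse, whereas replicates 1 and 5, at 927 and 856, lay among the lowest WT values. The means were 1275 ± 428 (SD, n = 6) and 2540 ± 1556 (SD, n = 7). The fitted log2 fold change was 0.99 (standard error 0.37, 95% interval 0.20 to 1.79), a 1.99-fold difference that did not pass 5% FDR (adjusted p = 0.137 by edgeR). The exact permutation test over all splits of the 13 mice, two-sided on log2 values, gave p = 0.088 against a smallest possible p of 0.000583. Nod2-/- replicate 7 had the highest count, and without it the log2 fold change was 0.69 (adjusted p = 0.275).

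Cyp7b1 (ENSMUSG00000039519.6, chr3:18071950-18243338, minus strand) codes for the oxysterol 7-alpha-hydroxylase of the alternative route and is a male-biased gene in mouse liver. Its normalized counts were 9098, 12401 and 15724 (lowest, median and highest) in WT mice and 4673, 8563 and 10845 in Nod2-/- mice. Nod2-/- replicates 4, 5, 6 and 7 fell below every WT mouse, and replicates 1, 2 and 3 lay within the lower WT range. The log2 fold change was -0.63 (standard error 0.22, 95% interval -1.10 to -0.15, adjusted p = 0.126 by edgeR), with p = 0.0297 in the two-sided exact permutation test. The 2 mice with the lowest Cyp7b1, Nod2-/- replicates 4 and 7, also had the lowest sums of the 9 male-biased liver genes, 66972 and 34103, where the other Nod2-/- mice had 84838 to 132680 and WT mice 86394 to 153810, and they were also the lowest without Selenbp2, the most abundant of the 9. Of those 9 genes 6 had a fitted level below that of WT and 3 above it, with 0 past 5% FDR. Their part in the Cyp7b1 values was not tested.

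Cyp27a1 (ENSMUSG00000026170.6, chr1:74713574-74737892, plus strand) codes for the mitochondrial sterol 27-hydroxylase, which oxidizes the side chain. Its normalized counts were 4755, 5699 and 6229 (lowest, median and highest) in WT mice and 2565, 4697 and 5648 in Nod2-/- mice. Nod2-/- replicates 1 to 4 were below every WT mouse and replicates 5 to 7 were within the WT range. Its log2 fold change was -0.34 (standard error 0.16, 95% interval -0.69 to 0.02, adjusted p = 0.239 by edgeR). Cyp8b1 (ENSMUSG00000050445.4, chr9:121914356-121916305, minus strand, a single exon) codes for the sterol 12-alpha-hydroxylase that directs synthesis to cholic acid. It had 1699, 2698 and 3774 normalized counts (lowest, median and highest) in WT mice and 511, 2019 and 3890 in Nod2-/- mice, so that the Nod2-/- values spanned more than the whole WT range. Its log2 fold change was -0.27 with a wide 95% interval of -0.99 to 0.44 (adjusted p = 0.647 by edgeR), and without Nod2-/- replicate 4, which had the lowest count, it was -0.10.

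**Figure D2:**
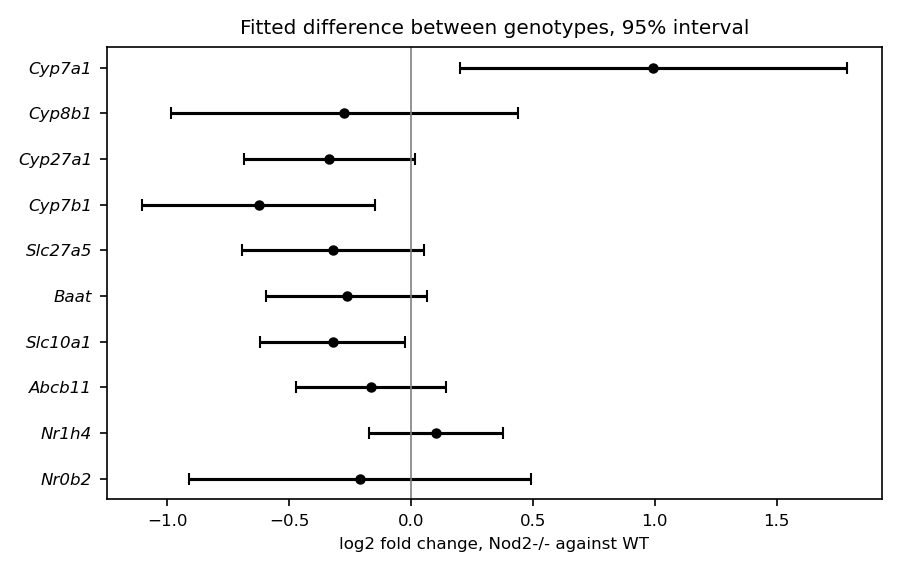
Fitted log2 fold change of Nod2-/- against WT mice (horizontal axis) for the 10 bile acid genes, with 95% intervals from edgeR that are not adjusted for the number of genes; the vertical line marks no difference. The intervals of Cyp7a1, Cyp7b1 and Slc10a1 lie to one side of 0, and those of Cyp8b1 and Nr0b2 are wide.

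Ratios of transcripts within a mouse do not depend on how libraries are scaled, and 3 were compared between genotypes, with p adjusted over the 3. The ratio of Cyp7b1 to Cyp7a1 counts ranged from 5.33 to 17.7 among WT and from 0.859 to 11.7 among Nod2-/- mice. Nod2-/- replicates 2, 3, 4, 6 and 7 were below every WT mouse, while replicates 1 and 5, at 11.7 and 9.996, lay in the middle of the WT range. Its mean log2 was 3.29 ± 0.71 (SD, n = 6) in WT and 1.82 ± 1.30 (SD, n = 7) in Nod2-/- mice, a difference of -1.47 with p = 0.0309 and an adjusted p of 0.0927 (two-sided exact permutation test). When 1 mouse was left out the difference ran from -1.13 (without Nod2-/- replicate 7, adjusted p = 0.156) to -1.76 (without Nod2-/- replicate 1, adjusted p = 0.0325), by the same exact test. It passed 5% only without Nod2-/- replicate 1 or 5 (adjusted p = 0.0292 for the latter), the 2 Nod2-/- mice within the WT range, and the largest adjusted p was 0.189, without WT replicate 5.

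The ratio of Cyp8b1 to Cyp7a1 had a mean log2 of 1.11 ± 0.76 (SD, n = 6) in WT mice and -0.14 ± 1.48 (SD, n = 7) in Nod2-/- mice, a difference of -1.25 (adjusted p = 0.142, exact permutation test). Every WT mouse had more Cyp8b1 than Cyp7a1 counts, as did Nod2-/- replicates 1, 5 and 6, whereas the other 4 Nod2-/- mice had fewer. When 1 mouse was left out the difference ran from -0.92 (without Nod2-/- replicate 4, adjusted p = 0.257) to -1.64 (without Nod2-/- replicate 5, adjusted p = 0.0292, exact permutation test). Only the latter passed 5%, and the mouse left out there had the highest ratio of all, 4.54.

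**Figure D3:**
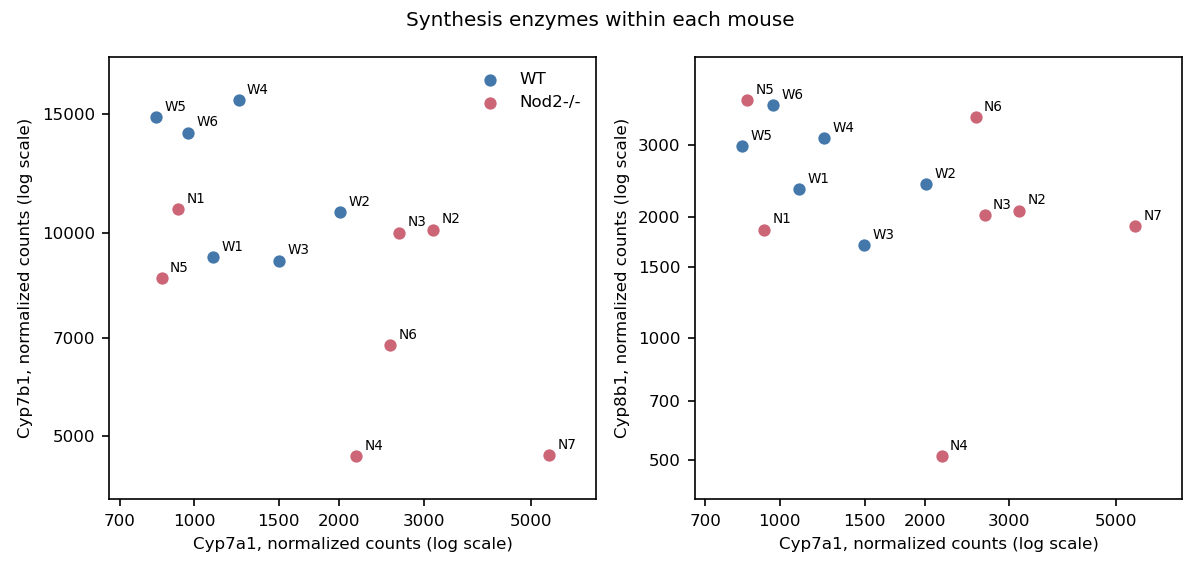
Normalized counts (log axes) of Cyp7b1 and of Cyp8b1 (vertical) against Cyp7a1 (horizontal) in each of 6 WT (blue, W) and 7 Nod2-/- (red, N) mice, labelled by replicate number. Nod2-/- replicates 4 and 7 have the lowest Cyp7b1 beside Cyp7a1 counts above every WT mouse, and Nod2-/- replicate 4 has the lowest Cyp8b1.

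Both conjugation enzymes had fitted levels below those of WT, and neither passed 5% FDR. Slc27a5 (ENSMUSG00000030382.15, chr7:12988346-12998192, minus strand) codes for the ligase that activates bile acids with coenzyme A, and Baat (ENSMUSG00000039653.9, chr4:49489422-49506557, minus strand) for the transferase that adds taurine or glycine. Slc27a5 had 8530, 10830 and 13410 normalized counts (lowest, median and highest) in WT mice and 5648, 9275 and 11980 in Nod2-/- mice. Only Nod2-/- replicates 2 and 4 were below every WT mouse. Baat had 3516, 4651 and 6124 in WT mice and 2473, 4223 and 5012 in Nod2-/- mice, with only Nod2-/- replicate 4 outside the WT range. The log2 fold changes were -0.32 (95% interval -0.69 to 0.05, adjusted p = 0.281) and -0.26 (95% interval -0.59 to 0.07, adjusted p = 0.318) by edgeR.

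Slc10a1 (ENSMUSG00000021135.8, chr12:80953183-80968705, minus strand) codes for NTCP, the sodium-dependent carrier that takes conjugated bile acids up from portal blood. It had 6168, 8950 and 10628 normalized counts (lowest, median and highest) in WT mice and 5765, 6340 and 8090 in Nod2-/- mice. WT replicates 3 and 6 lay among the Nod2-/- values, and the other 4 WT mice were above all 7 Nod2-/- mice. Fitted across all genes, the log2 fold change was -0.32 (standard error 0.14, 95% interval -0.62 to -0.02, adjusted p = 0.188 by edgeR), with p = 0.0589 in the two-sided exact permutation test.

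Abcb11 (ENSMUSG00000027048.15, chr2:69238282-69342616, minus strand) codes for the bile salt export pump of the canalicular membrane. It had 5780, 6452 and 7063 normalized counts (lowest, median and highest) in WT mice and 3486, 5592 and 7576 in Nod2-/- mice. Nod2-/- replicate 1 was above every WT mouse and replicates 4 to 7 were below every WT mouse, so the Nod2-/- mice lay on both sides of a narrow WT range. The coefficient of variation was 7.09% in WT and 22.8% in Nod2-/- mice, a difference that was not tested. Its fitted log2 fold change was -0.17 (95% interval -0.47 to 0.14, adjusted p = 0.508 by edgeR). Its exons overlap the antisense genes Gm13613 and Gm13614 over 136 and 19 bases, and these had at most 1 count and 0 counts in any mouse. The ratio of Abcb11 to Slc10a1, export set against uptake, had a mean log2 of -0.37 ± 0.40 in WT and -0.26 ± 0.38 in Nod2-/- mice, a difference of 0.10 (adjusted p = 0.613, exact permutation test).

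The receptor Nr1h4 (ENSMUSG00000047638.15, chr10:89454234-89533585, minus strand) had 1498, 2096 and 2358 normalized counts (lowest, median and highest) in WT mice and 1568, 2283 and 2634 in Nod2-/- mice. Nod2-/- replicates 3 and 7 were above every WT mouse and the other 5 were within the WT range. The log2 fold change was 0.10 (95% interval -0.17 to 0.38, adjusted p = 0.652 by edgeR), and with voom it was -0.001053 and without WT replicate 3 it was 0.02. Nr0b2 (ENSMUSG00000037583.2, chr4:133553376-133556536, plus strand) had 324, 1044 and 1743 in WT mice and 558, 758 and 1556 in Nod2-/- mice, and all 7 Nod2-/- mice lay within the WT range. Its lowest and highest values of all were both in WT mice, replicates 5 and 2. The log2 fold change was -0.21 with a 95% interval of -0.91 to 0.49 (adjusted p = 0.731 by edgeR), and it was 0.04 with voom, -0.03 without WT replicate 2 and -0.40 without WT replicate 5. These intervals include 0 and leave room for a difference in either direction.

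Upstream sequences of the bile acid genes were searched for short motifs bound by nuclear receptors in general. RefSeq start sites of GRCm38.p6 were at hand for 6 of the 10 members, as 7 entries. The motifs were AGGTCA, the half-site shared by many nuclear receptors, TCAAGG, the core bound by LRH-1 (Nr5a2), and CAAAGTCCA, a core bound by HNF4A, each on both strands. The first 2 can overlap each other by 3 letters. Among 32851 mouse promoters, 14.02% hold AGGTCA, 12.46% TCAAGG and 0.384% CAAAGTCCA in the 250 bases before the start. A pair of AGGTCA and TGACCT with 1 base between, the arrangement that FXR with its partner RXR is known to bind, was in 2 of the 32851 promoters (0.00609%) and in none of the 7 entries. Only these exact letters were searched for, so a pair with a changed letter would be missed. At a share this low, absence from 7 entries says little about FXR binding. The 250 bases before the start are shown 5′ to 3′ for the export pump (chr2:69342617-69342866, minus strand), SHP (chr4:133553126-133553375, plus strand) and the 12-alpha-hydroxylase (chr9:121916306-121916555, minus strand), since the first 2 are textbook targets of FXR and the other a target of SHP. Capitals mark motif matches.
Abcb11: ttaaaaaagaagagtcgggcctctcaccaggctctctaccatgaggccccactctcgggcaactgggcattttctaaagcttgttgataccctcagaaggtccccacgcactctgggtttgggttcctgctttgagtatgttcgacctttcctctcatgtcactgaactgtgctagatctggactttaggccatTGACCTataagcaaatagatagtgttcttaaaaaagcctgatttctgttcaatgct
Nr0b2: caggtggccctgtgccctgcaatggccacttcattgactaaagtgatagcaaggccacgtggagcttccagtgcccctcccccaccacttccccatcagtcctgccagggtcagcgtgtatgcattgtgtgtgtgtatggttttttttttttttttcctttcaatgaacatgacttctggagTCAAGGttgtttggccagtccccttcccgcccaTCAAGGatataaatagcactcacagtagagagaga
Cyp8b1: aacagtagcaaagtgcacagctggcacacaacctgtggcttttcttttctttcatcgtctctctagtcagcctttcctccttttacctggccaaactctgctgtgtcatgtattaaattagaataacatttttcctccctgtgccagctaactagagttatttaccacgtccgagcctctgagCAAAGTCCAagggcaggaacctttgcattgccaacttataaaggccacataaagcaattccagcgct
Abcb11 has 1 half-site match, on the reverse strand at positions -56 to -51 from the start. Directly before it the sequence reads aggccat, which is AGGTCA with 1 letter changed and then 1 base. This stretch therefore differs from the exact pair by 1 letter. Of the entries not shown, Nr1h4 has a half-site at -214 to -209 and the second entry of Slc10a1 has one at -87 to -82, whereas Cyp27a1 and the first entry of Slc10a1 hold none of the motifs. The Nr1h4 entry (chr10:89506659-89506908) and the second Slc10a1 entry (chr12:80968080-80968329) lie inside the gene spans given above, before internal starts. Nr0b2 has TCAAGG at -68 to -63 and again at -35 to -30, and Cyp8b1 has CAAAGTCCA at -67 to -59. A match is a description of the letters and not a measured binding site.

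How these transcripts moved from mouse to mouse was examined for 4 pairs, over log2 normalized counts, with p from permutations adjusted over the 4. Nr1h4 and Nr0b2 had r = -0.44 (p = 0.131, adjusted p = 0.494) and Spearman's rho = -0.58 (p = 0.0400, adjusted p = 0.160) over the 13 mice, by permutation. Within the genotypes r was -0.27 (exact permutation p = 0.551) in WT and -0.68 (exact permutation p = 0.0885) in Nod2-/- mice, and without WT replicate 3 and Nod2-/- replicate 1, the mice farthest from the Nr1h4 median, it was -0.51 (permutation p = 0.111, adjusted p = 0.166). The sign was negative in both genotypes, and no value passed 5% after adjustment.

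Nr0b2 and Cyp7a1 had r = -0.21 (permutation p = 0.494) and rho = -0.27 (permutation p = 0.363) over all 13 mice, with adjusted p of 0.494 and 0.363. Within WT mice r was 0.62 (rho = 0.60, exact permutation p = 0.189 and 0.242), and within Nod2-/- mice it was -0.76 (rho = -0.79, exact permutation p = 0.0496 and 0.0480, adjusted p = 0.177 and 0.0960). Whether the 2 genotypes differ in this relation was not tested. The pooled value rested on WT replicates 2 and 5, which had the highest and the lowest Nr0b2. Without them r was -0.74 (permutation p = 0.0104, adjusted p = 0.0418) and rho -0.74 (permutation p = 0.0126, adjusted p = 0.0503) over 11 mice.

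Nr0b2 and Abcb11 had r = 0.23 (rho = 0.32, permutation p = 0.436 and 0.287), with 0.25 in WT and 0.30 in Nod2-/- mice, and 0.37 without WT replicates 2 and 5. Nr0b2 and Cyp8b1 had r = 0.23 (rho = 0.36, permutation p = 0.449 and 0.233), with 0.08 in WT and 0.36 in Nod2-/- mice, and 0.48 without the same 2 mice. Adjusted p was 0.494 for r and 0.363 for rho in both pairs, so neither relation was distinguishable from none with 13 mice.

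**Figure D4:**
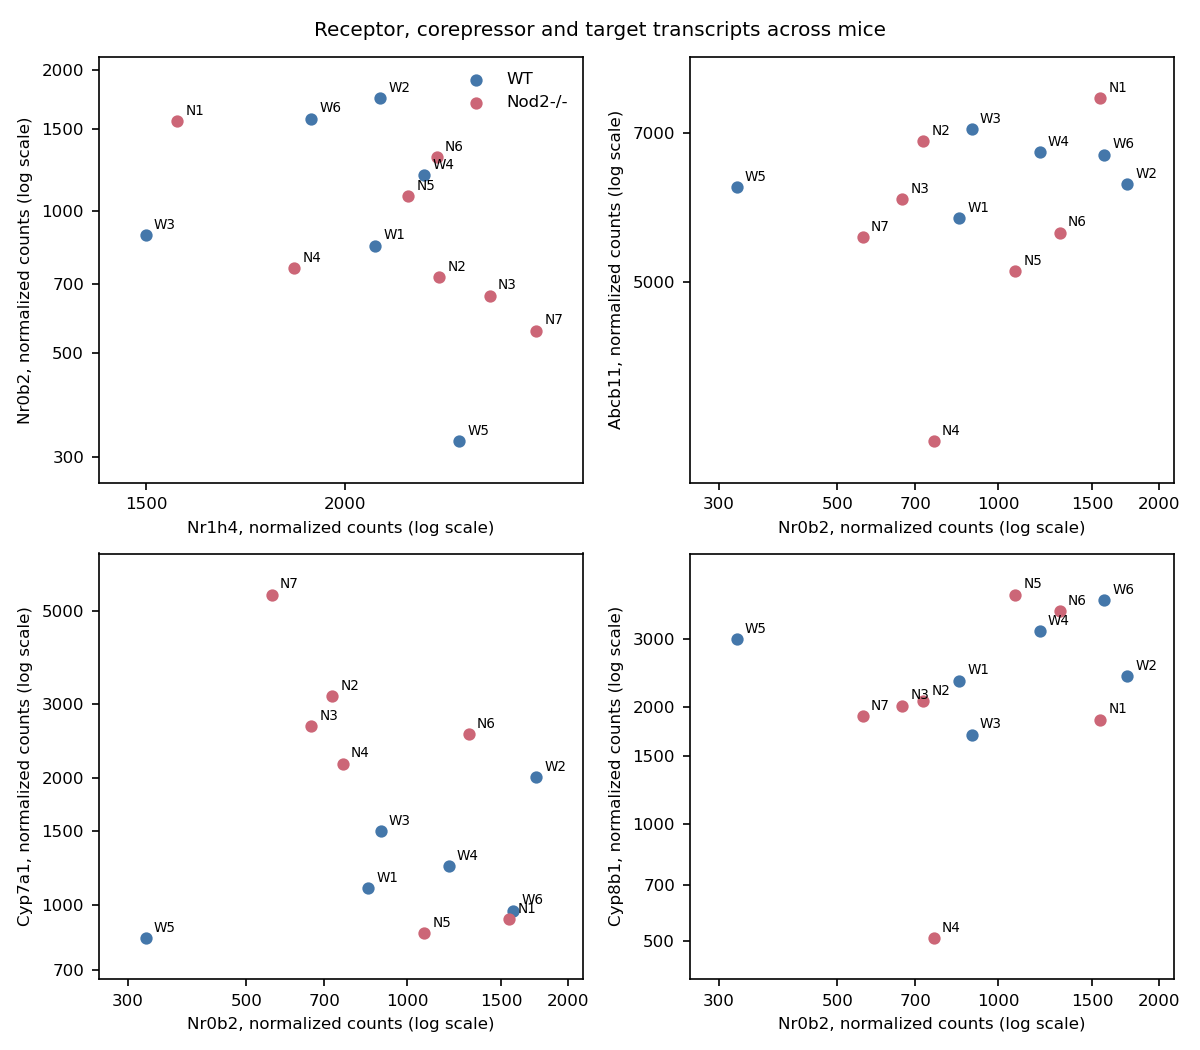
Normalized counts (log axes) of Nr0b2 against Nr1h4, and of Abcb11, Cyp7a1 and Cyp8b1 against Nr0b2, in each of 6 WT (blue, W) and 7 Nod2-/- (red, N) mice. In the panel of Cyp7a1, WT replicates 5 and 2 lie at the lowest and highest Nr0b2, and r is -0.21 over all 13 mice, 0.62 within WT, -0.76 within Nod2-/- and -0.74 without those 2 mice.

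Extreme values of the members were unevenly spread over the mice, although none of 26 Dixon tests at 95%, over each member and ratio within each genotype, singled out a mouse. Nod2-/- replicate 4 had the lowest count of all 13 mice for 6 of the 10 genes, Cyp8b1, Cyp27a1, Cyp7b1, Slc27a5, Baat and Abcb11. Its Cyp8b1 count was 25.0% of the median of the other 6 Nod2-/- mice, Cyp7b1 50.3%, Cyp27a1 52.4%, Baat 58.3%, Slc27a5 59.9% and Abcb11 60.0%. Its Slc10a1 was at 95.8% of that median, Nr0b2 at 84.1%, Cyp7a1 at 83.1% and Nr1h4 at 81.3%. The same mouse had the highest summed hepatocyte markers, 3057500, and the highest Spp1 and Cyp2a4 of the 13 mice, and the part of these in the result was not tested. Without it the log2 fold change was -0.53 for Cyp7b1, -0.24 for Cyp27a1 and Slc27a5, -0.17 for Baat and -0.07 for Abcb11. WT replicate 2 had the highest count of all mice for 3 of the genes, Baat, Slc10a1 and Nr0b2.

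**Figure D5:**
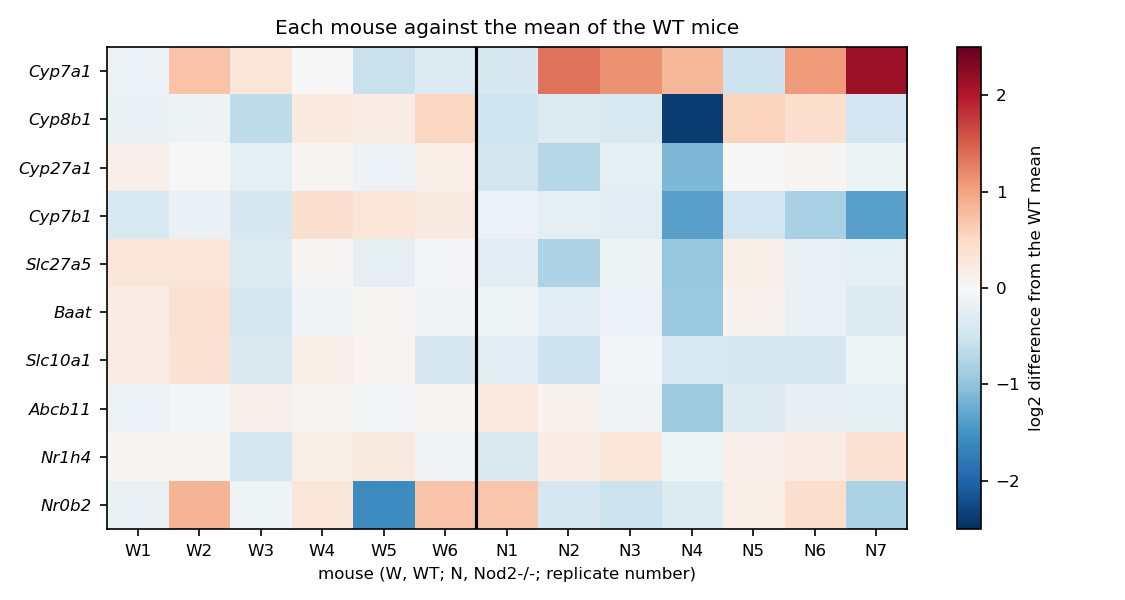
Log2 difference of each mouse from the mean of the WT mice (color scale, red above and blue below) for the 10 bile acid genes (rows) in 6 WT (W) and 7 Nod2-/- (N) mice (columns, by replicate number). The column of Nod2-/- replicate 4 is the darkest blue for Cyp8b1, and the row of Cyp7a1 is a deeper red in Nod2-/- replicates 2, 3, 4, 6 and 7 than in any WT mouse.

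The other genes of bile acid synthesis lay mostly below WT in their fitted levels, as the members did. Of 13 further synthesis genes 12 were tested, 11 with a log2 fold change below 0 and 1 above it (median -0.41 beside 0.02 for all genes). By edgeR 0 passed 5% FDR and 6 had an unadjusted p under 0.05, beside 23.1% of all genes at that p. The pair with the lowest p were Cyp46a1, a cholesterol 24-hydroxylase, and Hsd17b4, a peroxisomal enzyme of side-chain shortening. Cyp46a1 had 114 ± 50.4 normalized counts (SD, n = 6) in WT and 34.6 ± 27.1 (SD, n = 7) in Nod2-/- mice, with 5 of 7 Nod2-/- mice below every WT mouse (log2 fold change -1.72, adjusted p = 0.0644 by edgeR). Hsd17b4 had 9145 ± 1202 and 6285 ± 1324, again with 5 Nod2-/- mice below every WT mouse (log2 fold change -0.54, adjusted p = 0.0685 by edgeR). DESeq2, voom and the edgeR fit without WT replicate 3 each placed 4 of the 12 past 5% FDR as lower, namely Cyp46a1, Hsd17b4, Acot8 and Slc27a2, and Cyp39a1 as higher. Of all genes, these fits placed as lower 4.03% (DESeq2), 2.39% (voom) and 3.37% (without WT replicate 3), and as higher 4.38%, 3.83% and 5.12%. Acot8, Slc27a2 and Cyp39a1 are named after their values were seen, because they made up that count. Of the 13 edgeR fits that left out 1 mouse, 3 placed Cyp46a1 past 5% FDR and 2 placed Acot8. Only 1 of the 13 did so for each of Hsd17b4, Slc27a2 and Cyp39a1. With the replicate number as a block, adjusted p by edgeR was 0.143 for Cyp46a1 and 0.172 for Hsd17b4.

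Of 17 further transporters of bile acids and bile lipids, 16 were tested, 14 with a log2 fold change below 0 and 2 above it (median -0.41). By edgeR 0 passed 5% FDR and 7 had an unadjusted p under 0.05, all lower. The list and the 7 include Ephx1, which codes for an epoxide hydrolase (log2 fold change -0.43, unadjusted p = 0.0345 by edgeR). Over all genes 23.1% were under that p in either direction, and 1384 of the 13545 were lower. Abcc3, an export pump of the basolateral membrane, had 3692 ± 1131 normalized counts (SD, n = 6) in WT and 1926 ± 702 (SD, n = 7) in Nod2-/- mice, with 6 of 7 Nod2-/- mice below every WT mouse (log2 fold change -0.94, adjusted p = 0.0662 by edgeR). Slco2b1, an organic anion uptake carrier, had 2936 ± 204 and 2168 ± 505, also with 6 of 7 below (log2 fold change -0.44, adjusted p = 0.113 by edgeR). Abcc3 passed 5% FDR with DESeq2 (adjusted p = 0.00753), voom (0.0355) and without WT replicate 3, and Slco2b1 with DESeq2 (0.0466). Of the 13 edgeR fits that left out 1 mouse, 2 placed Abcc3 past it and 0 placed Slco2b1. With the replicate number as a block, adjusted p by edgeR was 0.176 for Abcc3. Slc51a, a subunit of the basolateral bile acid exporter, had 0 counts in all mice.

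Of 15 further regulators 13 were tested, 9 with a log2 fold change below 0 and 4 above it (median -0.06). By edgeR 0 passed 5% FDR and 5 had an unadjusted p under 0.05, beside 23.1% of all genes at that p. Fgfr4, the hepatocyte receptor for FGF15, had 655 ± 57.8 normalized counts (SD, n = 6) in WT and 834 ± 111 (SD, n = 7) in Nod2-/- mice, with 5 of 7 Nod2-/- mice above every WT mouse (log2 fold change 0.35, adjusted p = 0.0693 by edgeR). Nr1i2, the xenobiotic receptor PXR, had 2093 ± 445 and 1373 ± 328, with 5 of 7 below every WT mouse (log2 fold change -0.61, adjusted p = 0.0712 by edgeR). Both passed 5% FDR with DESeq2 (0.0279 for Fgfr4 and 0.0131 for Nr1i2) and with voom (0.0398 and 0.0284), and Nr1i2 did without WT replicate 3. Of the 13 edgeR fits that left out 1 mouse, 2 placed Nr1i2 past it and 0 placed Fgfr4. Klb, the coreceptor of Fgfr4, had 307 ± 11.8 and 333 ± 94.1 (log2 fold change 0.12, adjusted p = 0.695 by edgeR), and Fgf15, Gpbar1 and Ch25h were below the filter on low counts.

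Of 11 further textbook targets of FXR, some of which are also among the transporters and regulators above, 10 were tested, 7 with a log2 fold change above 0 and 3 below it (median 0.25). By edgeR 0 passed 5% FDR and 1 had an unadjusted p under 0.05, beside 23.1% of all genes at that p. That 1 was Pltp, a phospholipid transfer protein, with 162 ± 33.3 normalized counts (SD, n = 6) in WT and 253 ± 90.9 (SD, n = 7) in Nod2-/- mice and 4 of 7 Nod2-/- mice above every WT mouse (log2 fold change 0.64, adjusted p = 0.0986 by edgeR). It passed 5% FDR with DESeq2 (adjusted p = 0.0448), voom (0.0479) and without WT replicate 3. The last was the only 1 of the 13 edgeR fits leaving out a mouse that placed Pltp past it. With the replicate number as a block, its adjusted p by edgeR was 0.227. Abcc2, the canalicular conjugate pump, had 6529 ± 1321 and 5006 ± 1265, with 3 of 7 Nod2-/- mice below every WT mouse (log2 fold change -0.38, adjusted p = 0.217 by edgeR).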

How the data were processed

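Liver RNA of individual mice was isolated, and libraries of polyadenylated RNA were made with a kit that keeps strand. Reads were trimmed by the authors (Trimmomatic 0.33) and mapped to GRCm38 (TopHat2 2.1.1), and raw counts per GENCODE gene were deposited, without normalization. The counting program and its handling of strand and of reads that map to several places are not given in the sources used here, so overlapping or similar genes are uncertain. An entry without an identifier (0 counts) was left out. Positions come from a later GENCODE release of GRCm38 and promoters from RefSeq. The test was edgeR's (version 4.0.16, R 4.3.3) glmQLFit and glmQLFTest on genes kept by filterByExpr, with TMM sizes, two-sided, without covariate, at 5% FDR. Normalized counts use TMM sizes, with a prior count of 0.5 on the log2 scale. Exact permutation tests ran over all 1716 splits, and pooled correlations used 100000 permutations (scipy 1.17.1).

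Alternatives were DESeq2 1.42.0 (the authors' tool), limma 3.58.1 (voomWithQualityWeights), RLE size factors, every gene with a count, genes with 10 or more counts in each mouse, the 20 most abundant genes removed, the replicate number as a block, leaving out each mouse, a prior count of 5 and no TMM factors. The fits were tested on simulated data with the same dispersion for every gene and no outlying mouse. That setting is simpler than these data, so it does not show how stable the calls here are. The members, lists and tests were chosen with earlier results of these data known. The text names the 10 members, Nod2, genes of the bile acid lists past 5% FDR, and otherwise the 2 genes per list with the lowest p. Named outside this rule, after their values were seen, are Acot8, Slc27a2, Cyp39a1, Ephx1, Hnf4a, Klb, the genes with too few counts to test, and marker genes. Each library was a separate mouse, and any pair of libraries from the same group differed beyond counting noise.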

Additional observations from a re-analysis of the deposited data

How the results depend on the processing

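The count of 0 members past 5% FDR was the same under every alternative. The number of genes past 5% FDR over the whole table was not. It was 157 in the report, 1209 with DESeq2, 843 with voom, and 41 (without WT replicate 1) to 1156 (without WT replicate 3) when 1 mouse was left out. The member fold changes kept their direction under all alternatives except voom, where the log2 fold change of Nr1h4 was -0.001053 and that of Nr0b2 0.042. Leaving out 1 mouse moved the log2 difference of the ratio of Cyp8b1 to Cyp7a1 between -1.64 and -0.92, and that of Cyp7b1 to Cyp7a1 between -1.76 and -1.13. The first passed 5% without Nod2-/- replicate 5 (adjusted p = 0.0292, exact permutation test), and the other without Nod2-/- replicate 1 or 5 (0.0325 and 0.0292). Why these counts and calls moved was not tested.

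The labels number the mice of each genotype alike. Deviations of same-numbered mice correlated at -0.29 to 0.28, and none correlated best with its own number, so the numbers gave no sign of pairing. With the replicate block on the 12 mice numbered 1 to 6, 32 genes passed 5% FDR and 0 of the 10 members. Depth was not limiting for the members, the lowest count of any of them in a mouse being 293.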

Other observations

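Cyp39a1, an oxysterol 7-alpha-hydroxylase chosen here after its values were seen, was the 1 further synthesis gene with a fitted level above that of WT. Its normalized counts ran from 18.5 to 308 among WT and from 125 to 1926 among Nod2-/- mice (Nod2-/- median 309), with 4 of 7 Nod2-/- mice above every WT mouse. Nod2-/- replicate 7, among those 4, was nearly level with WT replicate 3, at 308.7 against 308.2. WT replicates 1, 2 and 4 were at 18.5, 32.9 and 20.8 and the other 3 WT mice at 161 to 308, so the WT mice fell far apart. The log2 fold change was 2.19 (adjusted p = 0.106 by edgeR), and leaving out Nod2-/- replicate 4, the mouse at 1926, gave an adjusted p of 0.231. It passed 5% FDR with DESeq2 (0.0483), voom (0.0361) and without WT replicate 3 (0.0437). The last was the only 1 of the 13 edgeR fits leaving out a mouse that placed Cyp39a1 past it.

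Hnf4a, a hepatocyte transcription factor also chosen after its values were seen, had 11222 ± 988 normalized counts (SD, n = 6) in WT and 8866 ± 946 (SD, n = 7) in Nod2-/- mice, with 6 of 7 Nod2-/- mice below every WT mouse. Its log2 fold change was -0.34 (standard error 0.10, adjusted p = 0.0805 by edgeR, 0.00545 with DESeq2 and 0.0556 with voom), and none of the 13 fits that left out 1 mouse placed it past 5% FDR. The marker lists used above gave 1 call by edgeR, Sox9 among 6 tested cholangiocyte markers. It had 49.7 ± 19.8 normalized counts in WT and 122 ± 30.8 in Nod2-/- mice (log2 fold change 1.29, adjusted p = 0.0324).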
